A study of Mus musculus with 14 samples.

Results

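The results concern the 7 protein subunits of respiratory complex I that the mitochondrial genome encodes (ND1, ND2, ND3, ND4, ND4L, ND5 and ND6) and the nuclear gene Nnt, 8 of the 15036 genes listed in the deposited tables. They were chosen by name, after differences between Morrbid-/- and wild-type (WT) libraries had been seen in these same data, so every genotype difference of a member is given as a description and carries no test. The cells were sorted naive (CD62Lhi CD44lo) splenic CD8 T cells of C57BL/6 mice, and Morrbid is a long non-coding RNA gene deleted in the Morrbid-/- mice. All cells were stimulated for 6 h with plate-bound anti-CD3 at 1 µg/mL and soluble anti-CD28 at 1 µg/mL, and some also received recombinant IFN-beta1 at 20 ng/mL. There were 3 Morrbid-/- and 3 WT libraries of total RNA without IFN-beta, and 4 Morrbid-/- and 4 WT libraries with IFN-beta. The labels do not say whether libraries of a group came from separate mice, so p-values below measure the spread between these libraries, which may be technical. The substrain of the C57BL/6 mice is not given in the sources used here, for either genotype.

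Complex I is the first enzyme of the mitochondrial respiratory chain: it passes electrons from NADH to ubiquinone and pumps protons across the inner membrane. Its ND subunits form the core of the membrane arm, and the rest of the enzyme is encoded in the nucleus. The ND genes are transcribed from mitochondrial DNA (mtDNA) as parts of long polycistronic RNAs, ND6 from one strand and the others from the opposite strand. Nnt encodes the nicotinamide nucleotide transhydrogenase, an inner-membrane enzyme that uses the proton gradient to make NADPH from NADH, and NADPH keeps mitochondrial glutathione and thioredoxin reduced. C57BL/6J mice are known to lack several Nnt exons that C57BL/6N mice have, and counts summed per gene, as here, do not show which exons were read. Activated T cells raise mitochondrial respiration as they leave quiescence.

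The 7 ND genes lie on the mitochondrial genome (chromosome M, GRCm38) in the order ND1 at 2751 to 3707, ND2 at 3914 to 4951, ND3 at 9459 to 9806, ND4L at 9877 to 10173, ND4 at 10167 to 11544, ND5 at 11742 to 13565 and ND6, on the minus strand, at 13552 to 14070. Nnt lies on the minus strand of chromosome 13, at 119335448 to 119408997 in the GENCODE M21 annotation. Nuclear copies of mtDNA limit how far ND reads can be assigned. Of all 75-base windows of each gene's GENCODE transcript, the share that also stands in another annotated transcript was 97.8% for ND3 (268 of 274), 98.7% for ND4L (220 of 223) and 61.5% for ND4 (802 of 1304). The share was 5.71% for ND2 and 1.66% for ND5, and no window of ND1, ND6 or Nnt was shared. Only annotated transcripts were searched, so these shares are lower limits. The main partners of ND3, ND4L and ND4 are the pseudogenes Gm28438, Gm10222 and Gm28439, side by side on the minus strand of chromosome 1 (24611535 to 24613119). Gm28439 and ND4 did not differ at any of 876 aligned bases, nor Gm10222 and ND4L at any of 294. Gm28438 and ND3 differed at 1 of 345 bases, T3C, counted from 1 at the 5′ end of ND3 with the ND3 base first. The starts of both are shown because they hold the only base that differs in this aligned stretch of the reference, and the capital marks it:
ND3: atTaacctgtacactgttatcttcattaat
Gm28438: atCaacctgtacactgttatcttcattaat

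Neighbouring ND genes also share bases with each other. ND4L and ND4 overlap by 7 bases on the same strand, in capitals in the end of the first and the start of the second:
ND4L end: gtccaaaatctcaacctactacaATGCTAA
ND4 start: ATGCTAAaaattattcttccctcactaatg
ND5 and ND6 run towards each other on opposite strands, and the last 14 bases of each, in capitals, pair with those of the other:
ND5 end: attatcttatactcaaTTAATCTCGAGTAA
ND6 end: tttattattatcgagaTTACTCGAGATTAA
The library kit keeps strand, and whether the counting used it is not given in the sources used here. All 6 sequences are from GENCODE M21 transcripts.

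Values are the authors' normalized counts, in 1 table without IFN-beta and 1 with it, normalized separately, so levels are compared between genotypes within a table only. Whole reads could be recovered from them: 1747634 to 2963149 assigned reads per library without IFN-beta and 5788070 to 7355337 with it, so low genes are better measured in the table with IFN-beta. The 6 markers listed for CD8 T cells were Cd8a, Cd8b1 and the T-cell genes Cd3d, Cd3e, Cd3g and Thy1. They summed to 3045 to 3484 normalized counts in Morrbid-/- and 3287 to 4032 in WT libraries without IFN-beta, and to 7266 to 8291 and 7819 to 8361 with it. No marker list of CD4 T, B, myeloid, NK or erythroid cells summed to more than 28.4 in any library. Many of these markers had no row, which adds 0 to a sum. In that order, rows were present for 1 of 2, 2 of 4, 4 of 5, 3 of 3 and 1 of 4 markers without IFN-beta. With it they were present for 1 of 2, 2 of 4, 2 of 5, 1 of 3 and 0 of 4. These are bulk samples, in which fewer cells of a type and less RNA per cell cannot be told apart. Morrbid, listed as Gm14005, had 18 reads over the 3 libraries labelled Morrbid-/- and 8 reads over the 3 WT libraries without IFN-beta (7.10, 5.24 and 7.16 against 1.79, 4.16 and 1.53 normalized counts). It was thus not lower in the libraries labelled Morrbid-/- (log2 difference 1.17, SE 0.56, limma adjusted p = 0.808). Counts per gene do not show which part of the locus these reads come from. The table with IFN-beta has no row for Gm14005, so Morrbid could not be compared there. Directions given below as Morrbid-/- minus WT rest on the labels.

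All 8 members have a row in the table without IFN-beta and 7 in the table with it, where ND4L has none. A mean of at least 10 normalized counts was reached by 6 of the 8 and by 7 of the 7. By limma's test with Benjamini-Hochberg adjustment over all genes, 0 of 8 members passed 0.05 without IFN-beta, where 0.635% of the 9293 genes tested did (0.538% higher and 0.0968% lower). At an unadjusted p under 0.05 there was 1 member, ND3, against 568 of the 9293 genes tested. On the recovered reads, edgeR and DESeq2 called none of the members. With IFN-beta, 3 of 7 members passed (Nnt and ND5 higher, ND3 lower in Morrbid-/-), against 10.1% of the 9964 genes tested (5.25% higher and 4.84% lower). There, DESeq2 on the recovered reads called Nnt alone and gave ND3 no adjusted p. The Morrbid-/- and WT libraries did not overlap for 2 members without IFN-beta (ND1 and ND3, both lower), against 10.9% of all genes tested (5.54% higher and 5.4% lower). They did not overlap for 2 members with it (Nnt higher, ND3 lower), against 15.2% (7.58% higher and 7.6% lower). Since these same contrasts led to the choice of members, nothing is read from these counts.

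Nnt had the largest log2 difference among the members with reads in every library, in cells given IFN-beta. Nnt had 78.8, 83.4, 81.8 and 78.5 normalized counts in the 4 Morrbid-/- libraries with IFN-beta, against 42.5, 53.2, 40.9 and 27.3 in the 4 WT libraries. Every Morrbid-/- library stood above every WT library, and the Morrbid-/- libraries lay close together while WT replicate 2 was high and WT replicate 4 low. The means were 80.6 ± 2.38 in Morrbid-/- and 41.0 ± 10.6 in WT libraries (SD, n = 4 each), a ratio of 1.97 and a log2 difference of 1.00 (SE 0.18) on the log2(normalized count + 1) scale. These values stand on 86 to 91 reads per Morrbid-/- library and 28 to 52 per WT library. The difference lay between 0.82 and 1.13 when any 1 library was left out.

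Without IFN-beta, Nnt had 41.6, 45.8 and 66.5 normalized counts in Morrbid-/- libraries, against 38.4, 37.5 and 49.7 in WT libraries. The groups overlapped, and replicate 3 was the highest library of both genotypes. The means were 51.3 ± 13.3 and 41.9 ± 6.79 (SD, n = 3 each), with a log2 difference of 0.27 (SE 0.22). Without Morrbid-/- replicate 3 the difference was 0.07, and without Morrbid-/- replicate 1 it was 0.40. These values stand on 35 to 65 reads per library, and the difference was within the spread between libraries. Whether the genotype difference of Nnt itself differs between the tables was not tested.

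No measured gene next to Nnt on chromosome 13 was higher past the threshold in Morrbid-/- cells. Of the 3 nearest on each side, 3110070M22Rik was too low to be tested. Parp8, Emb, Mrps30 and Paip1 did not pass the threshold in either table (smallest limma adjusted p = 0.0829, Mrps30 with IFN-beta). Their log2 differences with IFN-beta were 0.15 for Parp8, -0.13 for Emb, -0.26 for Mrps30 and 0.09 for Paip1. The 4833420G17Rik gene fell in Morrbid-/- cells given IFN-beta, to 598 ± 44.3 normalized counts against 696 ± 18.9 in WT (SD, n = 4 each, log2 difference -0.22, SE 0.07, adjusted p = 0.0469), and had a log2 difference of -0.22 without IFN-beta (adjusted p = 0.808). That call was lost in 11 of 18 alternative fits (adjusted p up to 0.164), among them each one without any 1 library other than Morrbid-/- replicate 4. Emb passed with IFN-beta without Morrbid-/- replicate 4 (-0.22, adjusted p = 0.0163). Nnt, chosen with this contrast known, was the only gene of this stretch with all Morrbid-/- libraries above all WT libraries with IFN-beta. Of all genes tested, 7.58% stood so, and nothing is read from this about the stretch.

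**Figure D1:**
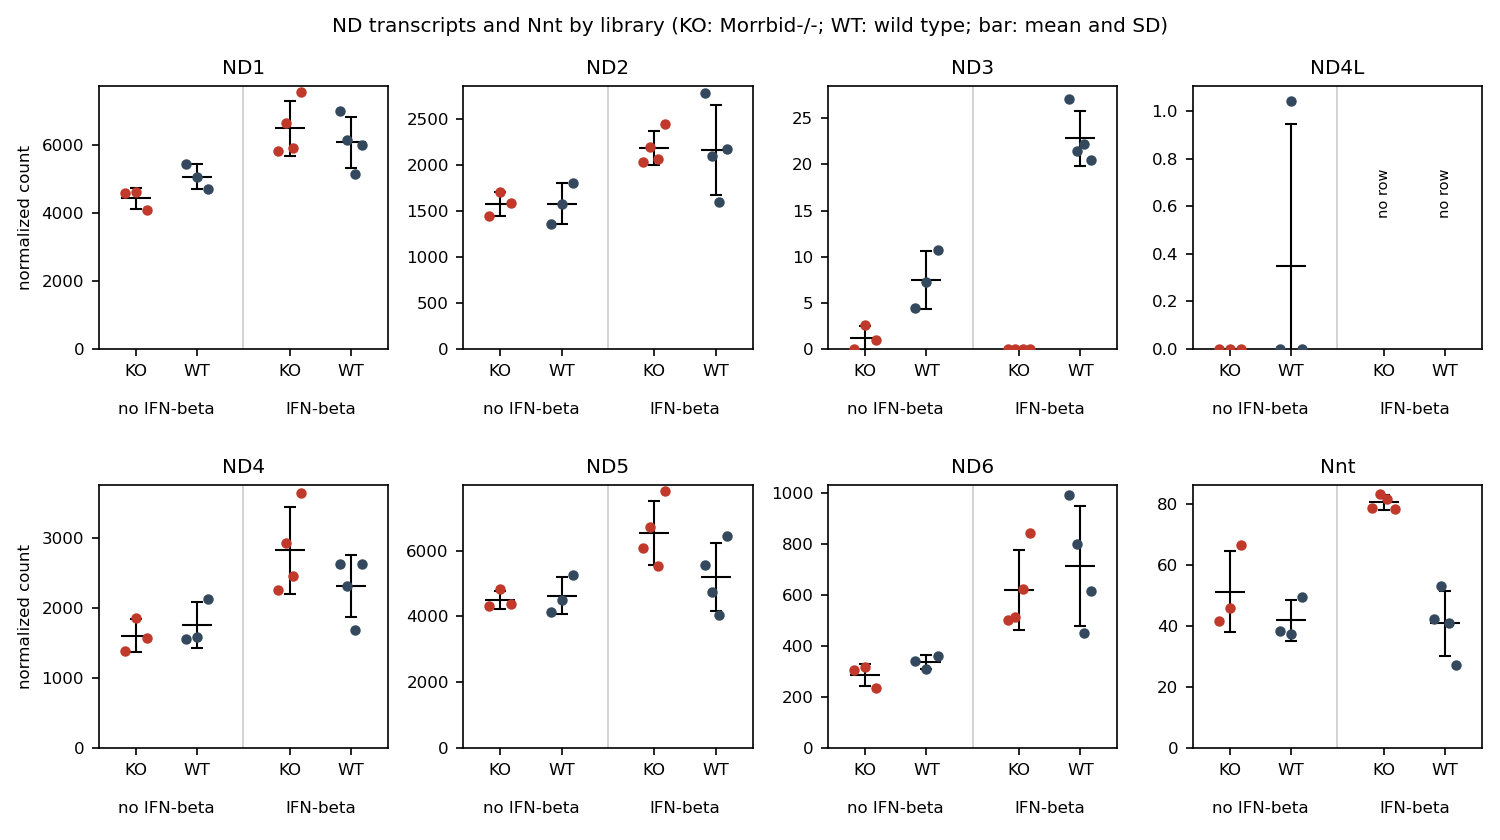
Normalized counts (y axis, linear, from 0) of the 7 ND genes and Nnt in every library, Morrbid-/- (KO, red) left of wild type (WT, dark blue), without IFN-beta (n = 3 each) and with IFN-beta (n = 4 each); the long bar is the mean and the whiskers are the SD. Nnt with IFN-beta lies at 78.5 to 83.4 in Morrbid-/- and 27.3 to 53.2 in WT libraries, ND3 is at 0 in all 4 Morrbid-/- libraries with IFN-beta, and the left and right sides of a panel come from tables normalized separately.

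ND1 is the subunit that joins the membrane arm to the rest of the enzyme and forms part of the ubiquinone-binding site. Without IFN-beta, ND1 had 4573, 4620 and 4073 normalized counts in Morrbid-/- libraries and 5421, 5064 and 4706 in WT libraries. All Morrbid-/- libraries lay below all WT libraries, by a narrow gap between Morrbid-/- replicate 2 and WT replicate 3, and the log2 difference was -0.20 (SE 0.11). With IFN-beta, ND1 had 5826, 6649, 5900 and 7551 in Morrbid-/- libraries and 6978, 6150, 5154 and 6006 in WT libraries. These groups overlapped over most of their range, with a log2 difference of 0.09 (SE 0.08) that was 0.02 without Morrbid-/- replicate 4. No window of ND1 is shared with a nuclear copy in the annotation, so its counts do not have the limit that ND3, ND4L and ND4 have.

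ND3, whose loop lies beside the ubiquinone site and moves with the state of the enzyme, had no read in any of the 4 Morrbid-/- libraries with IFN-beta. The 4 WT libraries had 27.1, 21.5, 22.2 and 20.5 normalized counts, from 23, 21, 19 and 21 reads. With a floor of 3 reads over the whole group, 0 reads allow up to 0.683 normalized counts in Morrbid-/- libraries, against 22.7 in WT libraries. Set against the WT rate as counted, the reads assigned to ND3 were at least 33.2-fold lower in Morrbid-/- libraries. Neither the counting error of the WT reads nor the spread between libraries is part of this bound. Without IFN-beta there were 0, 2 and 1 reads in the Morrbid-/- libraries and 5, 7 and 14 in the WT libraries, or 0, 2.62 and 1.02 against 4.47, 7.28 and 10.7 normalized counts. Again no Morrbid-/- library reached the lowest WT library, and the ratio of the read rates was 0.143 (exact 95% counting interval 0.0278 to 0.468). This interval pools the reads of each group and leaves out the spread between libraries. It is a description of a member chosen on this contrast and no test. ND3 thus stood in the same order in both tables, from few reads in each: its mean was under 10 without IFN-beta, and with it ND3 reached 10 only through the WT libraries.

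What the ND3 row counts is narrower than the gene. Of its 274 windows of read length, 268 are also in Gm28438, and of the other 6, 3 hold the base at position 3 and 3 run past the end of the copy. Per kb of transcript, ND3 averaged 0 in Morrbid-/- and 65.6 in WT libraries with IFN-beta, while ND1 and ND5, which lie on either side of it and share few or no windows, averaged 6773 and 3581 in Morrbid-/- and 6345 and 2845 in WT. ND4L, COX2, ATP6 and COX3, the other mtDNA genes with 98.7% or more of their windows in nuclear copies, were also low per kb in both genotypes, at 24.4 or less in Morrbid-/- and 17.3 or less in WT libraries with IFN-beta (ND4L has no row there). ATP8, which shares no window, was also low with IFN-beta, at 14.5 per kb in Morrbid-/- and 1.25 in WT libraries. Its genotypes did not overlap, in the opposite order to ND3, from 13 reads in Morrbid-/- and 1 in WT libraries. Counts per gene do not show which base the mice of either genotype carry at position 3 of ND3. The part that the T3C base or the shared windows play in the ND3 difference was not tested, and no direction is drawn from it for the ND3 transcript itself.

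ND4L and ND6 are small subunits that sit between ND3 and the pump-like subunits. ND4L had 1 read in all, in WT replicate 2 without IFN-beta (1.04 normalized counts), and nothing can be compared at this depth. ND6 had 306, 318 and 237 normalized counts in Morrbid-/- and 343, 309 and 360 in WT libraries without IFN-beta. Morrbid-/- replicate 3 was the lowest and the other libraries lay within a narrow band, with a log2 difference of -0.24 (SE 0.12). With IFN-beta, ND6 had 500, 512, 625 and 841 in Morrbid-/- and 992, 799, 451 and 614 in WT libraries. The spread within each genotype was wider than the distance between them (log2 difference -0.18, SE 0.16), and without WT replicate 1 the difference was 0.00.

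ND2, ND4 and ND5 are the antiporter-like subunits of the membrane arm, each with a proton path of its own. ND2 had 1441, 1704 and 1588 normalized counts in Morrbid-/- and 1357, 1571 and 1802 in WT libraries without IFN-beta, and 2033, 2191, 2066 and 2442 against 2784, 2095, 1597 and 2174 with it. The genotypes overlapped in both tables, with log2 differences of 0.01 (SE 0.11) and 0.04 (SE 0.10) whose sign turned when a WT library was left out (-0.10 without WT replicate 1, and -0.10 without WT replicate 3). ND4 had 1391, 1854 and 1566 in Morrbid-/- and 1552, 1590 and 2134 in WT libraries without IFN-beta. Here too the groups overlapped, with a log2 difference of -0.13 (SE 0.12) that became 0.02 without WT replicate 3.

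With IFN-beta, ND4 and ND5 had their highest and their lowest values in the same libraries, while other libraries changed place between them. ND4 had 2251, 2934, 2459 and 3638 normalized counts in Morrbid-/- libraries, against 2628, 2312, 1686 and 2621 in WT libraries (log2 difference 0.28, SE 0.12). ND5 had 6085, 6702, 5538 and 7799 in Morrbid-/- libraries, against 5549, 4733, 4037 and 6441 in WT libraries (log2 difference 0.34, SE 0.10). In both genes Morrbid-/- replicate 4 was the highest library and WT replicate 3 the lowest, and the genotypes overlapped. The ND5 difference was 0.23 without WT replicate 3 and 0.25 without Morrbid-/- replicate 4. ND5 was no longer among the members past the threshold counted above without the mean-variance trend or with DESeq2. The same held when WT replicate 2 or 3, or Morrbid-/- replicate 2 or 4, was left out. ND4 was among them only with a replicate block or without Morrbid-/- replicate 1. Nothing is read from these calls either. Without IFN-beta, ND5 had 4321, 4826 and 4388 in Morrbid-/- and 4149, 4489 and 5257 in WT libraries, overlapping, with a log2 difference of -0.03 (SE 0.11) that was 0.06 without WT replicate 3.

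Over the 7 ND rows the median log2 difference was -0.20 without IFN-beta, and over the 6 rows with IFN-beta it was 0.07, beside -0.01 and 0.00 over all genes tested. The median with IFN-beta is the same with ND3 at its bound (-5.05), since the bound keeps its rank. It was -0.04 without WT replicate 3. With ND3 and ND4L left out, an alternative chosen after seeing the data, the medians were -0.13 and 0.09.

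Compared per kb of transcript, the 5 ND genes with high counts kept the same order of means in each genotype and table: ND1, ND5, ND2, ND4, ND6. Of the windows of ND4, 61.5% are shared, against 5.71% or less for the others. The part of this in the place of ND4 was not tested. With IFN-beta the mean per kb was 6773 ± 840 in Morrbid-/- and 6345 ± 781 in WT for ND1, and 3581 ± 532 and 2845 ± 569 for ND5. ND2 followed with 2103 ± 179 in Morrbid-/- and 2083 ± 469 in WT, ND4 with 2047 ± 447 and 1678 ± 321, and ND6 with 1194 ± 304 and 1376 ± 450 (SD, n = 4 each). Within single libraries with IFN-beta, ND4 stood above ND2 in Morrbid-/- replicate 2 (2129 against 2111) and replicate 4 (2640 against 2353). ND6 was just above ND4 in WT replicate 1 (1912 against 1907). Otherwise the order held in each of these libraries. Without IFN-beta the means per kb were 4621 ± 317 in Morrbid-/- and 5291 ± 373 in WT for ND1, and 553 ± 84.0 and 650 ± 50.1 for ND6 (SD, n = 3 each). Nnt was far below all of these, at 23.3 per kb in Morrbid-/- and 11.8 in WT cells with IFN-beta. The counted reads of ND6, the gene on the other strand, were 0.269 to 0.396 of those of ND5 per kb in Morrbid-/- and 0.335 to 0.628 in WT libraries with IFN-beta, overlapping ranges.

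**Figure D2:**
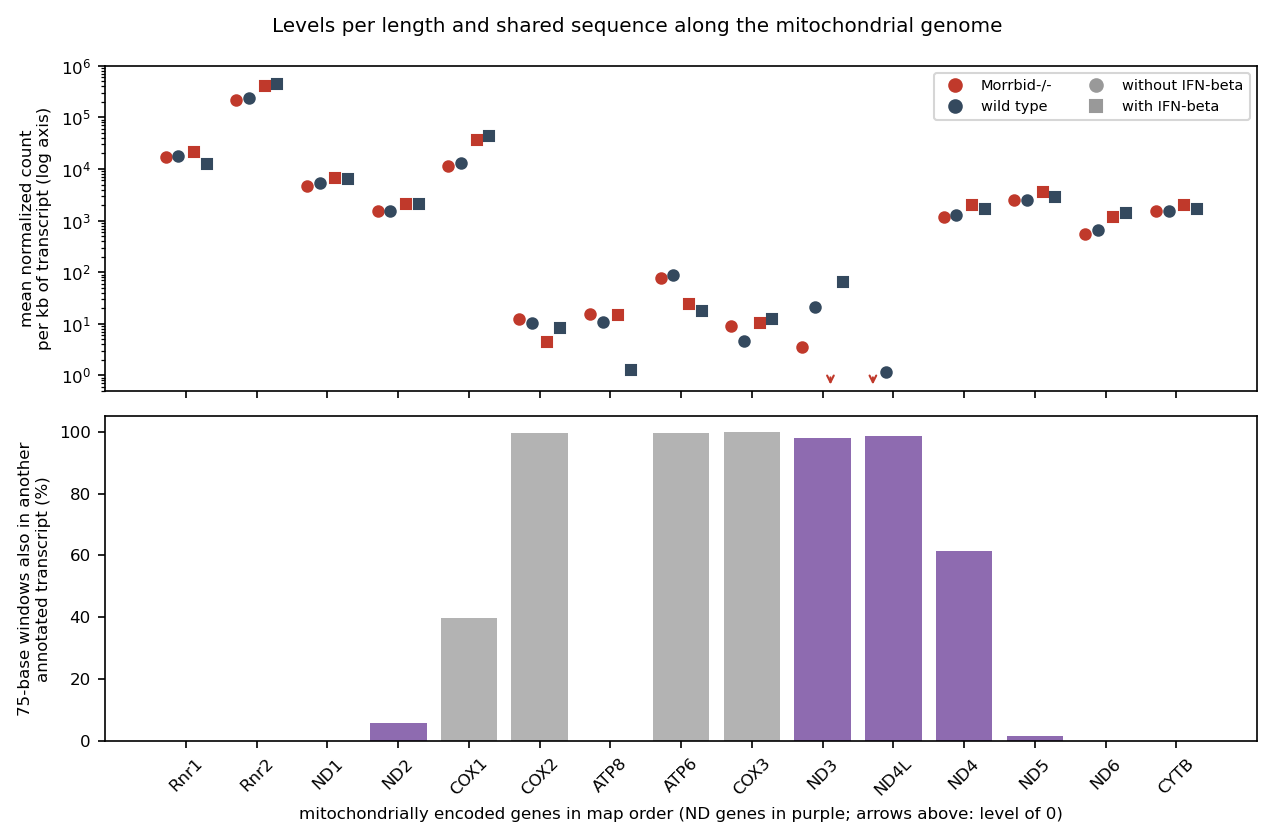
Top, mean normalized count per kb of transcript (y axis, log scale) of the 15 mitochondrially encoded genes in map order for Morrbid-/- (red) and wild type (dark blue), without IFN-beta (circles, n = 3 each) and with it (squares, n = 4 each), with arrows for a level of 0; bottom, the percent of each gene's 75-base windows that also stand in another annotated transcript (ND genes in purple). ND3, ND4L, COX2, ATP6 and COX3, each at 97.8% or more, have low levels, together with ATP8, which shares none.

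Among the other mitochondrially encoded genes, COX1, the catalytic core of complex IV, fell in Morrbid-/- cells given IFN-beta. It had 55717, 50950, 53803 and 61623 normalized counts in Morrbid-/- libraries, against 67730, 62211, 62907 and 71117 in WT libraries, with no overlap (log2 difference -0.25, SE 0.06, limma adjusted p = 0.0117). The call was lost without Morrbid-/- replicate 2 (adjusted p = 0.0642) and without the mean-variance trend (0.144), and 39.8% of the windows of COX1 are shared. Rnr1, the 12S ribosomal RNA of mitochondria, rose, with 14027, 21311, 16936 and 31016 in Morrbid-/- and 10403, 9605, 9568 and 17318 in WT libraries (0.81, SE 0.17, adjusted p = 0.00257). Replicate 4 was the highest in both genotypes and the ranges overlapped, and the call was lost without the trend (adjusted p = 0.148) and with DESeq2 (0.107).

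CYTB, the complex III subunit, had a log2 difference of 0.31 (SE 0.13, adjusted p = 0.131) with IFN-beta. It passed without WT replicate 4 (adjusted p = 0.00255). Rnr2, the 16S ribosomal RNA, had -0.15 (adjusted p = 0.257), and ATP6 of the ATP synthase had 0.54 (adjusted p = 0.364) from 5 to 25 reads per library. Without IFN-beta none of ATP6, COX1, CYTB, Rnr1 and Rnr2 passed with limma, edgeR or DESeq2 or reached an unadjusted p under 0.05, with log2 differences of -0.21, -0.19, 0.00, -0.07 and -0.17. COX2, COX3 and ATP8 had means under 10 and were not tested.

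The summed counts of ND1, ND2, ND4, ND5 and ND6 were 16697, 18989, 16588 and 22270 in Morrbid-/- and 18932, 16089, 12926 and 17855 in WT libraries with IFN-beta, overlapping. Divided by COX1 in the same library, the sum was 0.300 to 0.373 in Morrbid-/- and 0.205 to 0.280 in WT libraries, without overlap. Without IFN-beta the sums were 12032, 13322 and 11852 in Morrbid-/- and 12821, 13023 and 14260 in WT libraries, and the ratio to COX1 was 0.573 to 0.792 and 0.597 to 0.842, overlapping. Rnr2 alone took 9.05 to 10.5% of all normalized counts in Morrbid-/- and 9.45 to 12.0% in WT libraries with IFN-beta, and 11.6 to 18.9% and 12.5 to 18.1% without it, where replicate 1 was the highest of each genotype. The ratio of Rnr1 to Rnr2 was 0.0217 to 0.0440 in Morrbid-/- and 0.0127 to 0.0241 in WT libraries with IFN-beta. The part of the ribosomal RNA share in the ND values was not tested.

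**Figure D3:**
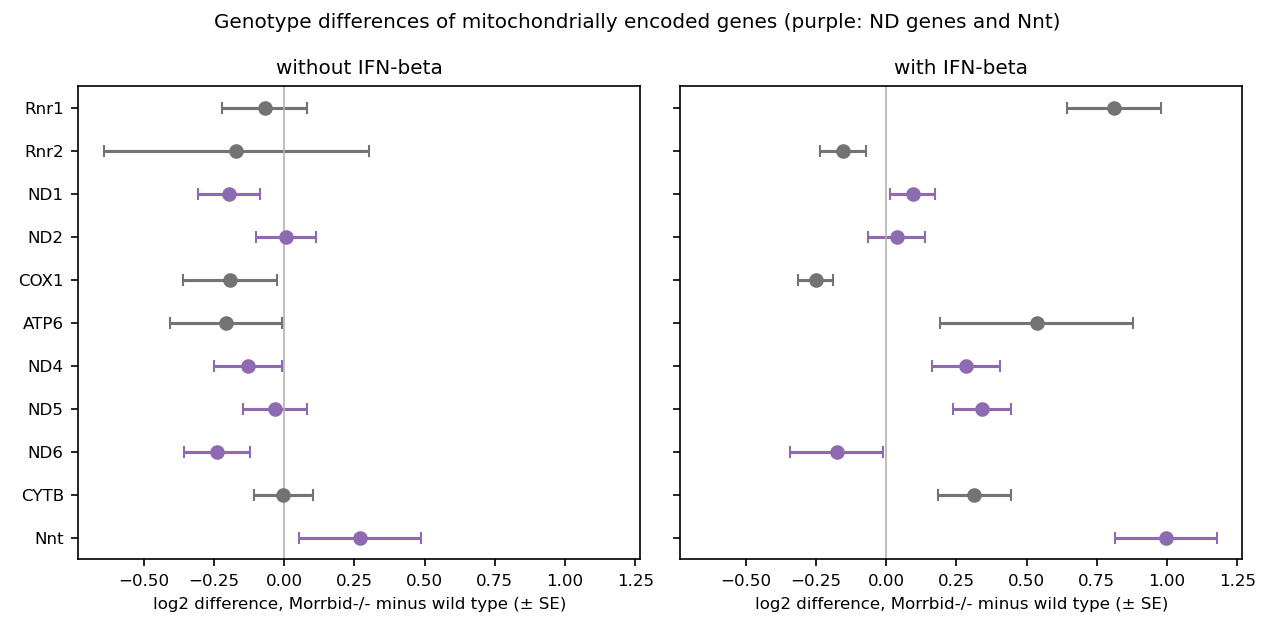
Log2 difference (x axis, Morrbid-/- minus wild type, on log2(normalized count + 1)) with its SE for the mitochondrially encoded genes tested in both tables other than ND3 and ND4L, in map order, and for Nnt, without IFN-beta (left, n = 3 each) and with it (right, n = 4 each); ND genes and Nnt are purple. Nnt stands at 0.27 and 1.00, ND5 at -0.03 and 0.34, COX1 at -0.19 and -0.25, and Rnr1 at -0.07 and 0.81.

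The nuclear partners of the ND subunits are given as lists, whose counts stand beside 0.635% of all genes called without IFN-beta (0.0968% lower) and 10.1% with it (5.25% higher and 4.84% lower). At an unadjusted p under 0.05 there were 568 of 9293 genes without IFN-beta and 2434 of 9964 with it. Over so few genes a count near these shares is not a result about the list. Among the nuclear subunits of complex I, 0 of 34 passed without IFN-beta (0 at an unadjusted p under 0.05, 0 with edgeR or DESeq2, median log2 difference -0.08). With IFN-beta 1 of 35 passed, Ndufb4, an accessory subunit of the membrane arm, and the median was 0.12 (6 of 35 had an unadjusted p under 0.05). Ndufb4 rose to 22.8 ± 3.79 normalized counts in Morrbid-/- against 10.4 ± 3.93 in WT cells (SD, n = 4 each, log2 difference 1.11, SE 0.31, limma adjusted p = 0.0229), from 18.3, 27.5, 23.4 and 21.9 in Morrbid-/- and 9.44, 6.14, 10.5 and 15.6 in WT libraries. All Morrbid-/- libraries were above all WT libraries. The call was lost without WT replicate 2 (adjusted p = 0.0727), Morrbid-/- replicate 2 (0.0955) or Morrbid-/- replicate 3 (0.0615), and DESeq2 gave no adjusted p. Of the others, Ndufa6 and Ndufb10 had log2 differences of -0.51 (adjusted p = 0.808) and -0.53 (0.824) without IFN-beta.

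The assembly factors that build complex I, among them Acad9, Tmem126b and Tmem186 of the complex that builds the ND2 module, gave 0 calls of 12 in either table with limma, edgeR and DESeq2 (0 at an unadjusted p under 0.05 without IFN-beta and 2 with it). Their medians were -0.02 without IFN-beta, which became 0.03 when libraries were scaled to equal totals, and -0.15 with it. Tmem126b and Acad9 had log2 differences of -0.51 (adjusted p = 0.884) and 0.20 (0.933) without IFN-beta. Ndufaf7, a methyltransferase acting on an early complex I subunit, had 0.51 (adjusted p = 0.179) and Tmem186 had -0.19 (0.202) with it.

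Of the 15 genes of mtDNA transcription and replication, 0 passed without IFN-beta (0 at an unadjusted p under 0.05, 0 with edgeR or DESeq2, median -0.02, or 0.03 with equal totals), where Tfam had -0.22 (adjusted p = 0.894) and Mterf2 had -0.36 (0.913). With IFN-beta 1 of 15 passed (2 at an unadjusted p under 0.05, median -0.12), where 10.1% of all genes did. It was Tfb2m, the factor that melts the mtDNA promoter for the polymerase, which fell to 109 ± 9.78 in Morrbid-/- against 145 ± 16.5 normalized counts in WT cells (SD, n = 4 each, log2 difference -0.41, SE 0.12, adjusted p = 0.0301). Its libraries did not overlap. The Tfb2m call was lost in 8 of 18 alternative fits, with an adjusted p of up to 0.107: with equal totals, without the trend, and without WT replicate 1, 2 or 3 or Morrbid-/- replicate 2, 3 or 4.

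Of 15 genes of mitochondrial RNA processing and turnover, 0 passed without IFN-beta (0 at an unadjusted p under 0.05, 0 with edgeR or DESeq2, median 0.02). With IFN-beta 2 fell (4 at an unadjusted p under 0.05, median -0.14), where 4.84% of all genes fell. Pnpt1, the polynucleotide phosphorylase of mitochondrial RNA decay and an interferon-induced gene, fell to 2069 ± 87.2 normalized counts in Morrbid-/- against 2719 ± 155 in WT cells (SD, n = 4 each, log2 difference -0.39, SE 0.06, adjusted p = 6.82e-05). Its values were 1967, 2077, 2179 and 2053 in Morrbid-/- libraries and 2932, 2719, 2658 and 2568 in WT libraries, with no overlap, and the call held in all 18 alternative fits. Fastkd2, a mitochondrial RNA-binding protein of the large ribosomal subunit's assembly, fell to 55.8 ± 13.7 in Morrbid-/- against 87.3 ± 3.57 in WT cells (-0.67, SE 0.17, adjusted p = 0.0103, lost without the trend at 0.0658). Without IFN-beta, Fastkd3 had 0.49 (adjusted p = 0.840) and Pnpt1 had -0.19 (0.908).

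Among 17 mitochondrial aminoacyl-tRNA synthetases, which charge the tRNAs that translate the ND genes, 1 fell without IFN-beta and 1 other gene with it, where 0.0968% and 4.84% of all genes did. Lars2, the leucine enzyme, fell to 49.8 ± 13.7 normalized counts in Morrbid-/- against 102 ± 13.0 in WT cells without IFN-beta (SD, n = 3 each, log2 difference -1.05, SE 0.19, adjusted p = 0.00235), from 40.5, 43.2 and 65.5 in Morrbid-/- and 102, 115 and 89.4 in WT libraries. That call was lost without WT replicate 2 (adjusted p = 0.0544) and without the trend (0.217), and Lars2 had -0.22 (adjusted p = 0.362) with IFN-beta. Tars2, the threonine enzyme, fell to 327 ± 9.07 in Morrbid-/- against 391 ± 26.2 in WT cells with IFN-beta (SD, n = 4 each, -0.26, SE 0.08, adjusted p = 0.0403). Its call was lost in 10 of 18 alternative fits (adjusted p up to 0.130): without the trend, with either scaling to equal totals, and without any 1 library other than WT replicate 2. The medians of the list were 0.07 without IFN-beta and -0.15 with it.

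The enzymes that share the work of Nnt, making mitochondrial NADPH or spending it on peroxides, gave 0 calls of 16 in either table with limma, edgeR and DESeq2 (1 at an unadjusted p under 0.05 in each), where limma called 0.635% and 10.1% of all genes. Their medians were 0.03 without IFN-beta and -0.07 with it. Prdx5, a peroxiredoxin, had -0.63 (adjusted p = 0.776) and Mthfd2, of mitochondrial folate metabolism, had 0.32 (0.862) without IFN-beta. Shmt2, its partner enzyme, had -0.31 (0.0801) with IFN-beta and passed without WT replicate 4 (0.0115). Gpx4, which reduces lipid peroxides, had -0.22 (0.283).

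**Figure D4:**
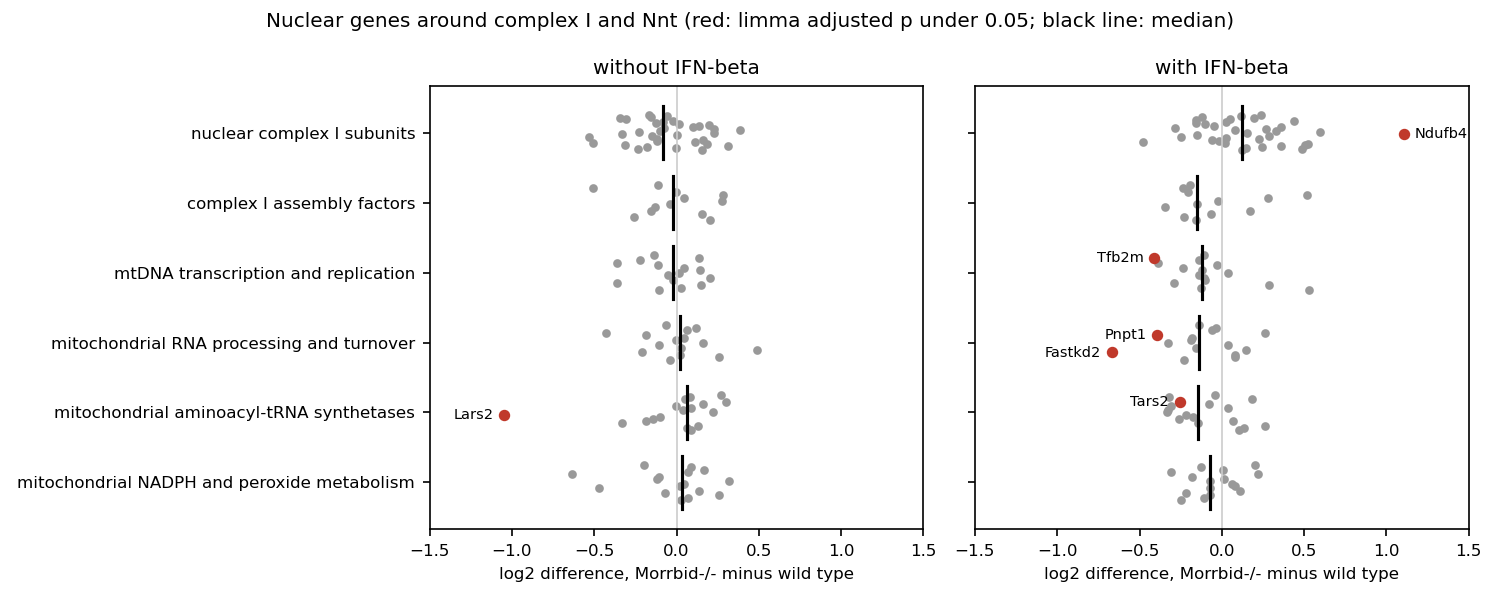
Log2 difference (x axis, Morrbid-/- minus wild type) of each tested gene of 6 nuclear gene lists, without IFN-beta (left, n = 3 each) and with it (right, n = 4 each); each point is a gene, red ones passed the limma adjusted p of 0.05 and are named, and the black line is the list's median. Lars2 at -1.05 passed on the left, and Ndufb4 at 1.11, Tfb2m at -0.41, Pnpt1 at -0.39, Fastkd2 at -0.67 and Tars2 at -0.26 passed on the right.

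Across all 14 libraries, after centring each table on its own mean, ND4 and ND5 followed each other most closely among the 5 abundant ND genes (Pearson's r = 0.898) and ND5 and ND6 least (0.258). These and the following correlations describe libraries that share tables and depth, and genotype differences within a table are part of them. Among the 5705 genes that averaged 50 or more in each table, the 5 most like Nnt were Dync1h1 (r = 0.911), Fryl (0.908), Kdm2b (0.908), Traf1 (0.905) and Arid1a (0.904). Kdm2b, a chromatin demethylase, had log2 differences of 0.13 without IFN-beta and 0.84 with it, beside 0.27 and 1.00 for Nnt. Outside mtDNA, genes most like the mean of the abundant ND genes included Sf3a3 (0.872), Utp3 (0.831) and Smc3 (0.830).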

How the data were processed

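Total RNA of 14 libraries was sequenced as stranded, paired reads, per the labels' protocols. Per the submitters' processing notes, Trimmomatic, STAR 2.5, featureCounts and DESeq2 were used with the builds GRCm38 and mm10; for the counting, annotation, strand setting and filters were not given in the sources used here. The authors deposited DESeq2 normalized counts, a signal per gene, in 1 table without IFN-beta (14732 genes) and 1 with it (12843 genes), normalized separately; no value column belonged to another sample (0). Dividing each library by its own step gave whole reads for 100% of values (within 0.01 reads). Of 15036 gene IDs, 14359 matched the RefSeq gene table, which gave the neighbours of Nnt.

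Within each table, limma 3.58.1 (R 4.3.3) with a mean-variance trend was run on log2(normalized count + 1) for genes with a mean of at least 10, keeping the members and Morrbid whatever their mean, with Benjamini-Hochberg adjustment over all genes and a threshold of 0.05. Fold changes on this scale understate those of low genes. On the recovered reads, edgeR 4.0.16 called 58 and 1011 genes and DESeq2 1.42.0 called 52 and 956 without and with IFN-beta, where limma called 59 and 1005. Alternatives were pseudocounts of 0.5 and 5, no filter and a mean of at least 50, equal library totals, equal totals outside mtDNA, no trend, a replicate block and leaving out each library. The limma fit was also run on simulated counts with the same excess spread for every gene. Those counts do not stand for the spread between these libraries, and nothing is read from them. Libraries of a group differed by more than sampling noise (chi-square per degree of freedom 1.87 to 9.27), so all were counted.

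The members and gene lists were chosen with earlier results of these data known. Named are all members, Morrbid, all mtDNA genes, up to 4 genes of each list past the threshold (otherwise the 2 with the smallest p), the 3 measured genes on each side of Nnt and the 5 most correlated genes, of which 2 are not reported here. Shared 75-base windows were searched in GENCODE M21 transcripts; no genome sequence was used. Intervals and floors cover counting error only.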

Additional observations from a re-analysis of the deposited data

Results flagged for a closer look

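In 7 of the 79 groups of 4 libraries examined for the named genes, 1 library stood apart by Dixon's test at 95%, where chance gives about 1 in 20. In Morrbid-/- cells with IFN-beta, replicate 4 of ATP6 (22.8 normalized counts, from 25 reads) and replicate 1 of Tmem186 (274) were high. In WT cells with IFN-beta, replicate 2 of ATP8 (1.02, a single read), replicate 4 of Rnr1 (17318) and 1 library of Fastkd3 (56.6) were high, and 1 library of Lars2 (88.1) and replicate 4 of Shmt2 (164) were low. No ND gene and not Nnt was among them. For Tfb2m the libraries of the genotypes did not overlap in either table, in opposite directions: the log2 difference was -0.41 with IFN-beta and 0.14 without it (143 ± 7.86 in Morrbid-/- and 130 ± 4.50 in WT cells, SD, n = 3 each), and the difference between the tables was not tested.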

How the results depend on the processing

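The difference of Nnt kept its sign in all alternatives run, between 0.82 and 1.13 with IFN-beta and between 0.07 and 0.40 without it. The ND median lay between -0.24 and -0.12 without IFN-beta and between -0.04 and 0.17 with it. The number of genes called without IFN-beta was 17 without the mean-variance trend and between 39 (without Morrbid-/- replicate 2) and 74 with 1 library left out, against 59 in the reported fit; with IFN-beta it was 305 without the trend and between 609 (without Morrbid-/- replicate 2) and 1021, against 1005. The causes were not tested. Scaling to equal totals with IFN-beta gave 730 genes higher and 344 lower, and equal totals outside mtDNA 662 and 382, against 523 and 482 as deposited, with a shift of the median of all genes to 0.04 and 0.03. Without IFN-beta, the log2 difference of CYTB (0.00) was 0.0488 with equal totals and 0.0290 with equal totals outside mtDNA, and lay between -0.0789 and 0.0848 with 1 library left out; that of Rnr1 lay between -0.138 and 0.0337 that of Rnr2 between -0.423 and 0.00131, and that of Parp8 between -0.101 and 0.122 (0.03 as reported). The correlations do not settle whether replicate numbers pair the libraries. Same-numbered libraries correlated at -0.0213 to 0.205 without IFN-beta and 0.00330 to 0.141 with it. Most Morrbid-/- libraries, but not all, correlated best with the WT library of their own number. As a replicate block, the replicate numbers gave 169 calls without IFN-beta, Emb among them (adjusted p = 0.0201). With IFN-beta they gave 1421, CYTB (2.42e-04) and Shmt2 (0.0386) among them. At 28 to 91 reads for Nnt and 0 to 23 for ND3 per library, depth limits both.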
